A study of Oncorhynchus mykiss with 15 samples.

Results

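In adipocytes of rainbow trout (Oncorhynchus mykiss), 54 of 25695 genes tested met a strict rule for genes highest in subcutaneous fat (SAT), the depot under the skin. They were chosen by their levels in these libraries, in CPM, that is, counts divided by a library total that the TMM method had adjusted. A member had a mean of at least 10 CPM in SAT, its lowest of 5 SAT libraries above the highest of the 10 others, and a mean in SAT over 1.5 times the larger mean of the 2 other depots. Those depots were intramuscular fat (IMAT), within the muscle, and visceral fat (VAT), around the inner organs. RNA had been sequenced from mature adipocytes of adult fish, freed with collagenase, in 5 libraries of each depot. All fish shared the same rearing conditions and a fast before sampling, and none was treated. The excess of SAT over both other depots is therefore a description of how the genes were chosen, and it was not tested.

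Mature adipocytes hold triacylglycerol in a lipid droplet, release it as fatty acids when energy is needed, and secrete signalling proteins. Visceral fat is a major lipid store of salmonids, and fat between the muscle fibres contributes to the fat content of the fillet. The deposited table gives Ensembl identifiers without names, and none of the 54 could be paired with a name or a position, so the members are described by their values and not by their roles. For the same reason the purity of the adipocytes could not be checked with markers of fat, skin, muscle or pigment cells. In bulk libraries of this kind, fewer cells of a type and less RNA per cell cannot be told apart.

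Library totals ran from 4203986 to 7243006 counts in SAT, from 2413951 to 4199494 in IMAT and from 5872244 to 9414223 in VAT. A floor of 3 counts thus stood at 0.447 to 0.569 CPM in SAT, 1.09 to 1.44 CPM in IMAT and 0.280 to 0.466 CPM in VAT. Genes with at least 1 count numbered 36958 to 46175 in SAT, 28821 to 35977 in IMAT and 37150 to 43239 in VAT. SAT replicates 4 and 5 and VAT replicate 5 had the most detected genes of their depots, and IMAT replicate 2 had the fewest of its depot and the smallest TMM factor, 0.501.

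Most members exceeded the other depots by a modest factor. The ratio of the mean in SAT to the larger other mean ran from 1.59 to 16.1, with a median of 2.5. It was over 2 in 43 members, over 4 in 9 and over 8 in 3. Taken against each depot alone, the median ratio was 2.73 for SAT over IMAT and 3.40 for SAT over VAT. SAT was over 8 times IMAT in 5 members and over 8 times VAT in 12. Mean CPM of the members in SAT ran from 11.1 to 1205, with 17 members at 100 CPM or more, 27 between 20 and 100 CPM and 10 below 20 CPM. CPM is not corrected for gene length, so these levels give no order of transcripts between genes.

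**Figure D1:**
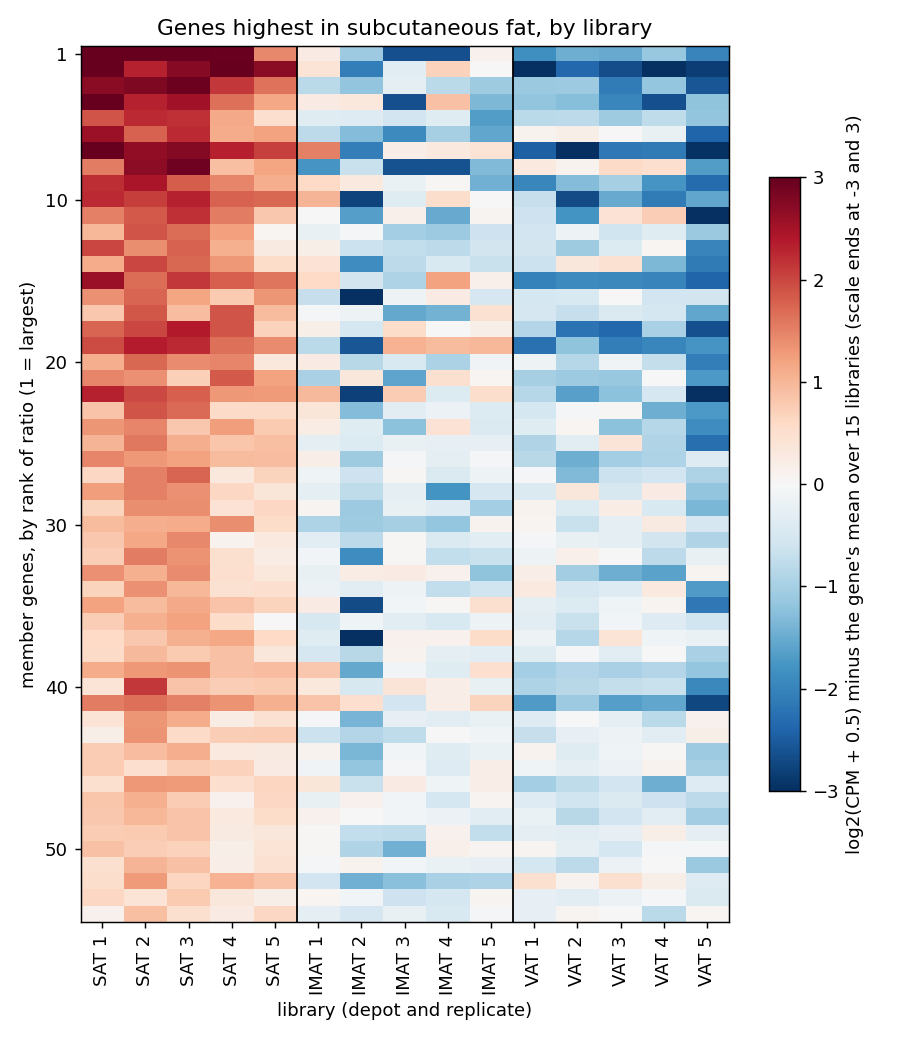
Each row is 1 of the 54 members, ordered by the ratio of the mean in SAT to the larger other mean, and each column a library. Colour gives log2(CPM + 0.5) minus the gene's own mean over 15 libraries and is cut off at -3 and 3. The SAT columns are the highest in every row because the genes were chosen so, and SAT replicates 4 and 5 lie above the gene's SAT mean in only 14 and 3 of the rows.

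The members together took 0.927% ± 0.138 of all counts in SAT (SD, n = 5), 0.313% ± 0.128 in IMAT and 0.308% ± 0.0371 in VAT. In SAT the shares of replicates 1 to 5 were 0.850, 1.12, 1.03, 0.864 and 0.781%. The IMAT shares were 0.415, 0.102, 0.336, 0.301 and 0.411%, and the VAT shares were 0.312, 0.326, 0.359, 0.276 and 0.268%. The lowest share was that of IMAT replicate 2, and the lowest of SAT was that of replicate 5. Of the counts the members took in SAT, 25% fell to the pair of members with the most counts and 68% to the 10 with the most. All 54 members had counts in every depot, with at least 337 pooled counts in SAT, 6 in IMAT and 14 in VAT. In IMAT, 15 members had under 100 pooled counts, so their levels there were measured imprecisely. Some of these had fewer counts still in VAT, such as 1 with 42 in IMAT and 14 in VAT.

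ENSOMYG00000061049 had the largest ratio. Its CPM was 24.5, 26.9, 30.9, 23.6 and 7.96 in SAT replicates 1 to 5. In IMAT it was 3.20, 0.958, 0, 0 and 2.89, and in VAT 0.372, 0.622, 0.593, 0.899 and 0.280. The gene thus had at most 8 counts in any IMAT or VAT library, and SAT replicate 5 lay well under the 4 other SAT libraries. Its means were 22.8 ± 8.75 CPM in SAT (SD, n = 5), 1.41 ± 1.55 CPM in IMAT and 0.553 ± 0.242 CPM in VAT, a ratio of 16.1 to the larger of these. The IMAT mean rested on 18 counts, and the ratio was between 12.9 and 23.6 when single libraries were left out.

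ENSOMYG00000033301 came next in this order. It had 83.5, 39.8, 53.3, 202.7 and 52.9 CPM in SAT replicates 1 to 5. It had 10.4, 1.44, 6.05, 12.6 and 7.60 CPM in IMAT, and 0.372, 1.09, 0.791, 0.257 and 0.653 CPM in VAT. SAT lay above IMAT and most IMAT libraries far above VAT, and SAT replicate 4 stood far above the other SAT libraries. IMAT replicate 2 rested on 3 counts, and without TMM factors it had 0.714 CPM, within the VAT range of 0.266 to 1.19 CPM. The means were 86.4 ± 66.9 CPM in SAT (SD, n = 5), 7.62 ± 4.28 CPM in IMAT and 0.632 ± 0.332 CPM in VAT. The ratio to the larger other mean was 11.3, and without SAT replicate 4 it was 7.53.

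The member ranked 3 in this order was measured on far more counts, with 21706 in SAT, 829 in IMAT and 1760 in VAT. Its CPM in SAT replicates 1 to 5 was 804, 857, 956, 534 and 381. It had 70.3, 53.6, 101.5, 70.1 and 58.6 CPM in IMAT, and 56.7, 57.5, 28.2, 55.0 and 20.5 CPM in VAT. The lowest SAT library was 3.76 times the highest of the 10 others, the widest gap of any member. Across the members this gap had a median of 1.12, was under 1.1 in 24 and was over 2 in 4. Within SAT the coefficient of variation of the members ran from 14.5 to 77.4%, with a median of 30.4%.

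**Figure D2:**
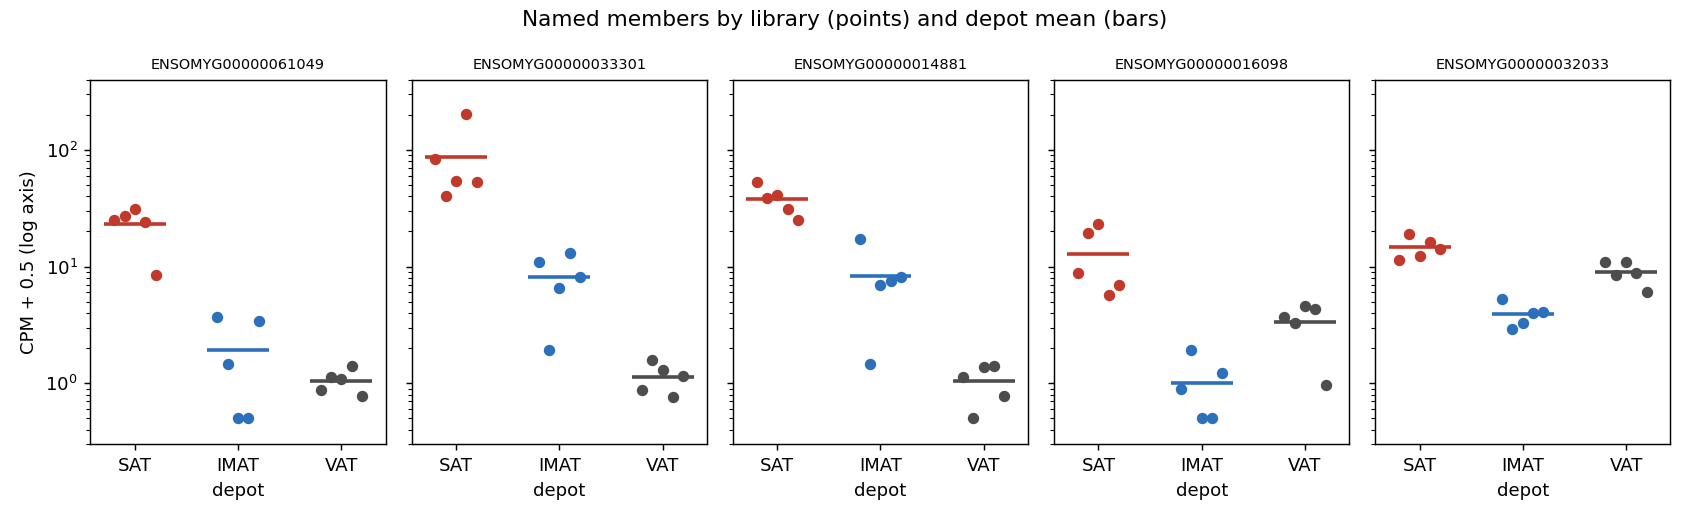
CPM + 0.5 on a log axis for the 5 members given by identifier, with 1 point for each of 5 libraries in SAT, IMAT and VAT and a bar at the mean of each depot. The first 4 panels show genes near or below 1 CPM in at least 1 library of another depot, and the last, ENSOMYG00000032033, shows a gene whose SAT and VAT points nearly meet.

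The edges of the rule were narrow. At the demand for non-overlap, the last member inside had its lowest SAT library at 40.72 CPM and its highest other library at 40.71 CPM, and the first gene outside had 36.8 and 37.2 CPM. At the ratio of 1.5, the values were 1.59 inside and 1.47 outside. At the minimum of 10 CPM they were 11.1 CPM inside and 9.94 CPM outside. A further 544 genes met the demands on level and ratio and failed only because libraries overlapped, against 29 that failed only on level and 4 only on ratio. In 184 of the 544, a single SAT library lay at or below the highest other library. That library was SAT replicate 5 for 118 genes, SAT replicate 4 for 45, SAT replicate 1 for 16, SAT replicate 3 for 4 and SAT replicate 2 for 1. On CPM without TMM factors the rule chose 140 genes, with 50 of the 54 members among them.

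Each library was then left out in turn, the genes were chosen anew on the other 14, and the library left out was read on them. This gave a SAT level in a library whose CPM was not used in the choice. The count filter and the TMM factors still came from all 15 libraries. The genes in which the library left out stands on its own side are nearly the 54 members again by construction. Only their share of the genes chosen carries information, since it falls as more genes are chosen without that library. All genes tested were not chosen for a high SAT level, so their shares are given for scale only. The gap between the 2 kinds of share is no test of the SAT excess. Without SAT replicate 2 the rule chose 54 genes, and SAT replicate 2 lay above all IMAT and VAT libraries in 53 of these (98.1%), against 9.57% of all genes tested. Without SAT replicate 3 it was 53 of 58 (91.4%, against 10.4% of all genes), and without SAT replicate 1 it was 54 of 73 (74%, against 8.74%).

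SAT replicates 4 and 5 gave lower shares. SAT replicate 4 lay above all IMAT and VAT libraries in 57 of 109 genes chosen without it (52.3%, against 6.52% of all genes tested). SAT replicate 5 did so in 58 of 199 (29.1%, against 6.16%). For those 199 genes the level in SAT replicate 5 was at the median 1.08 times the larger other mean, and it was above that mean in 114. For SAT replicate 2 the same median was 3.25. Over the 5 choices together, in which many genes recur, the library left out stood above all others in 275 of 493 cases, or 55.8%. The mean over the 5 libraries was 8.29% for all genes tested.

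The rule chose 56 to 74 genes with an IMAT library left out and 57 to 66 with a VAT library left out. At least 53 of the 54 members were among them. This return is nearly fixed in advance, since non-overlap in all libraries holds in any part of them. The IMAT library left out lay below all SAT libraries in 73% of the chosen genes for replicate 1 and in 96.4% for replicate 2. Over all genes tested these shares were 21.9% and 38.8%. VAT replicate 4 lay below all SAT libraries in 81.8% of the genes chosen without it, against 20% of all genes, and this was the lowest share of a VAT library. VAT replicates 2 and 5 both did so in 94.7%, against 18.8% and 27.8% of all genes.

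**Figure D3:**
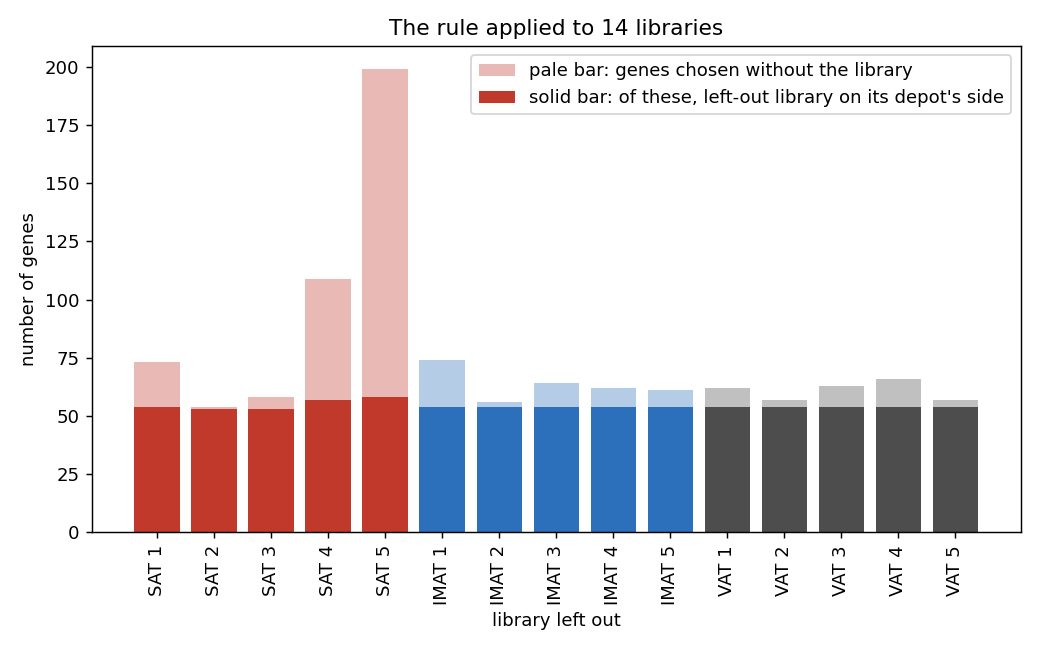
Pale bars count the genes the rule chose when the library on the horizontal axis was left out, and solid bars count those in which that library lay on its own depot's side, above all others for SAT and below all SAT libraries for IMAT and VAT. The pale bars of SAT replicates 4 and 5, at 109 and 199 genes, stand above all others, and the solid bars lie between 53 and 58 because they hold nearly the same members by construction.

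The rule did not use the difference between IMAT and VAT, but it set an upper limit on the levels in both depots. All genes tested were not limited in this way, so the shares below compare unlike sets of genes. The contrast of IMAT with VAT was tested over all genes by the quasi-likelihood F-test of edgeR. P-values were adjusted by Benjamini and Hochberg's method, with a threshold of 0.05. Of the 54 members, 13 were higher in IMAT than in VAT (24.1%) and 2 were lower (3.70%), against 13.1% higher and 8.12% lower over all genes tested. In either direction it was 15 members (27.8%), against 21.2% of all genes. The median log2 fold change of the members was 0.30, beside -0.10 for all genes tested, and the mean in IMAT was above that in VAT in 34 members, or 63%, against 45% of all genes. The members' median was 0.10 without VAT replicate 5 (all genes 0.02) and 0.17 without IMAT replicate 1 (all genes -0.10).

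The share of members higher in IMAT came close to that of all genes under some settings. The count filter was met by 46 members on the IMAT and VAT libraries alone, and the other 8 entered the test through their SAT counts. Those 8 gave 5 of the 13 higher calls and 1 of the 2 lower calls. Among the 46, 8 were higher (17.4%), against 12.6% of all genes that met the filter this way, and 1 was lower (2.17%, against 8.67%), a count added after the data had been seen. In a fit of only the IMAT and VAT libraries 6 of the 46 were higher (13%), against 11.9% of all genes in that fit. Without IMAT replicate 1 it was 8 of 54 (14.8%), against 12% of all genes.

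Of the members higher in IMAT, 5 met the count filter only through SAT, so the values given here rest partly on genes chosen through that depot. The 13 members higher in IMAT had log2 fold changes from 0.85 to 3.78, with a median of 1.99. In them the order of the means was SAT above IMAT above VAT, since every member was chosen for its SAT level. Of the 13, 12 had a ratio of SAT to IMAT over 2, and 10 were among the 12 members with SAT over 8 times VAT, a measure that shares its VAT libraries with this contrast. The other 39 members did not pass in either direction. Their log2 fold changes ran from -1.31 to 1.41, within 1 of 0 in 37, which does not show that the depots were alike.

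ENSOMYG00000014881 had the largest log2 fold change of IMAT over VAT. In IMAT replicates 1 to 5 its CPM was 16.8, 0.958, 6.52, 6.97 and 7.60. In VAT it was 0.621, 0, 0.890, 0.899 and 0.280, and in SAT it had been 52.7, 38.2, 41.0, 30.4 and 24.6. In CPM all IMAT libraries lay above all VAT libraries, but IMAT replicate 2 had only 2 counts. Without TMM factors that library, at 0.476 CPM, lay below VAT replicates 1, 3 and 4, the highest of which had 0.972 CPM. The VAT level rested on 24 counts over 5 libraries, so the size of the log2 fold change is uncertain. The log2 fold change was 3.78 with an SE of 0.58 (edgeR, adjusted p = 6.92e-05), for a gene that met the count filter only through SAT. With all libraries thinned to equal depth it was 4.84. For ENSOMYG00000033301, whose values are given above, the log2 fold change was 3.57 with an SE of 0.58 (edgeR, adjusted p = 0.000134). This gene too met the count filter only through SAT, and its VAT level rested on 27 counts.

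Both members lower in IMAT than in VAT are given here. ENSOMYG00000016098 had 0.400, 1.44, 0, 0 and 0.724 CPM in IMAT replicates 1 to 5. It had 3.23, 2.80, 4.05, 3.85 and 0.466 CPM in VAT, and 8.32, 19.1, 22.5, 5.22 and 6.45 CPM in SAT. VAT replicate 5 lay within the range of IMAT, and the IMAT level rested on 6 counts. The log2 fold change was -2.44 with an SE of 0.79 (edgeR, adjusted p = 0.0341), and it did not pass without VAT replicate 1, 3 or 4 (edgeR, adjusted p = 0.057, 0.067 and 0.063) or IMAT replicate 1, 3 or 4 (0.0687, 0.0766 and 0.0802). With limma-voom the adjusted p was 0.238, and the gene met the count filter only through SAT.

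ENSOMYG00000032033 had 4.80, 2.39, 2.79, 3.48 and 3.62 CPM in IMAT replicates 1 to 5, against 10.4, 7.92, 10.4, 8.35 and 5.50 CPM in VAT. These groups did not overlap, but they did once all libraries were thinned to equal depth, and the IMAT level rested on 41 counts. Its SAT values of 10.8, 18.5, 11.7, 15.8 and 13.7 CPM began just above the highest VAT library. The log2 fold change was -1.30 with an SE of 0.30 (edgeR, adjusted p = 0.0033). It did not pass edgeR's test for a change of more than 1 on the log2 scale (adjusted p = 0.352).

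Counted without a model, all IMAT libraries lay above all VAT libraries in 6 members (11.1%), against 9.72% of all genes tested, and below them in 1 member (1.85%), against 5.24%. The first count was 2 without TMM factors and 13 without IMAT replicate 2. The second was 3 without VAT replicate 5 and 2 without IMAT replicate 5. The shares over all genes were not counted in these settings. With a library left out, non-overlap is easier to meet for any gene, so these counts show no change particular to the members.

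**Figure D4:**
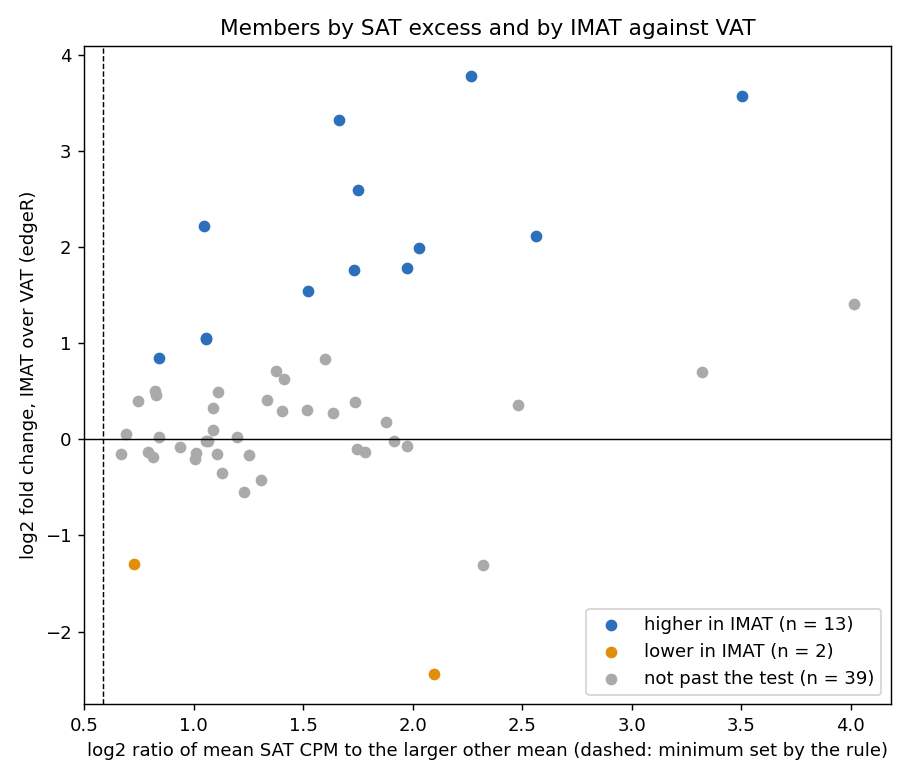
Each point is a member, with the log2 ratio of its mean in SAT to the larger other mean on the horizontal axis and its fitted log2 fold change of IMAT over VAT on the vertical axis. The dashed line marks the minimum ratio of the rule. Blue points (13) passed the edgeR test as higher in IMAT, orange points (2) as lower, and the 39 grey points did not pass.

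Within each depot, single libraries were low or high in many members at once. SAT replicate 5 was the lowest SAT library in 31 members (57.4%), against 26.9% of all genes tested, and the highest in 0, against 26.3%. SAT replicate 4 was the lowest in 15 (27.8%, against 19.5%), and SAT replicate 2 was the highest in 25 (46.3%, against 16.1%). The median deviation of the members from their own SAT mean, on the log2(CPM + 0.5) scale, was 0.07, 0.36, 0.25, -0.25 and -0.36 in SAT replicates 1 to 5. Over all genes tested these medians lay between -0.01 and 0.03. The members were chosen on these same SAT levels and all genes tested were not. These shares and medians thus compare unlike sets of genes, and the differences were not tested.

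Among the VAT libraries, replicate 5 was the lowest in 35 members (64.8%), against 32.6% of all genes tested, with a median deviation of -0.52 where the other 4 VAT libraries lay between 0.03 and 0.14. Among the IMAT libraries, replicate 2 was the lowest in 29 (53.7%, against 30.3%) and replicate 1 the highest in 20 (37%, against 17.5%), with median deviations of -0.41 and 0.41. Over all genes tested the medians lay between -0.01 and 0.01 in VAT and were -0.06 and 0.09 in these 2 IMAT libraries. The levels in IMAT and VAT entered the rule as an upper limit, which kept out genes in which any of these libraries reached the SAT level. VAT replicate 5 was also the highest VAT library in 32.6% of all genes tested, but in only 4 members (7.41%). These shares and medians thus compare unlike sets of genes, and the differences were not tested. IMAT replicate 1 set the upper limit most often. It was the highest of the 10 IMAT and VAT libraries in 14 members (25.9%, against 7.64% of all genes tested). VAT replicate 5 was the highest of these in 2 (3.70%, against 19.5%).

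The libraries that were low in the members differed in the number of genes detected. SAT replicates 4 and 5 had 46175 and 44738 detected genes, against 36958 to 41002 in the other SAT libraries, and VAT replicate 5 had 43239, against 37150 to 41316. Their TMM factors were 1.23 and 1.29 in SAT and 1.15 in VAT, above those of every other library of their depots. IMAT replicate 2 had 28821 detected genes, against 29589 to 35977. The part of these measures in the levels of the members was not tested. With these 3 libraries of SAT and VAT left out, a step added once the data had been seen, the rule chose 557 genes. Of the 54 members, 53 were among them, which is nearly fixed in advance, since non-overlap in all libraries holds in any part of them. In this setting 13 of the 54 were higher in IMAT than in VAT (24.1%, against 14.1% of all genes) and 3 were lower (5.56%, against 10%). The median log2 fold change of the members was then 0.06, beside -0.03 for all genes. The 54 include the 8 members that did not meet the count filter on the IMAT and VAT libraries alone.

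**Figure D5:**
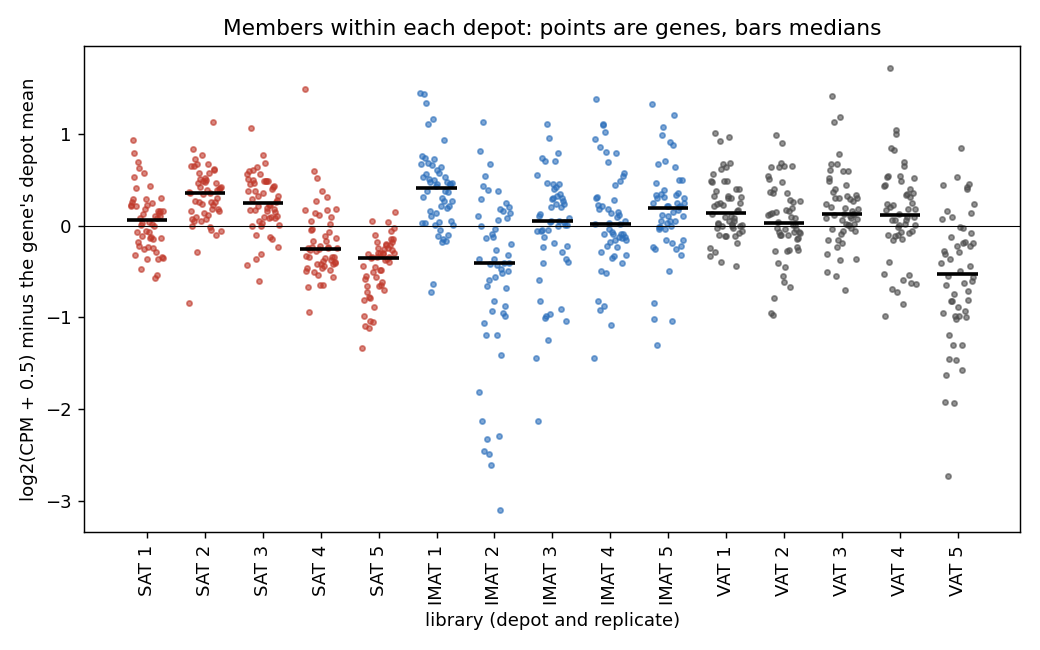
Each point is a member's log2(CPM + 0.5) in a library minus its mean over the 5 libraries of that depot, and each black bar the median over 54 members. The bars of SAT replicates 4 and 5, IMAT replicate 2 and VAT replicate 5 lie lowest, at -0.25, -0.36, -0.41 and -0.52.

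The same rule with the depots exchanged chose 1077 genes highest in IMAT and 266 highest in VAT. The 54 genes highest in SAT were 0.210% of all genes tested, against 4.19% for IMAT and 1.04% for VAT. The median ratio to the larger other mean was 2.5 for the SAT genes, 8.95 for the IMAT genes and 4.69 for the VAT genes, and it was over 4 in 16.7, 75.4 and 53.4% of them. The number for SAT was 199 without SAT replicate 5 and 140 without TMM factors. It was 557 without SAT replicates 4 and 5 and VAT replicate 5. The numbers for IMAT and VAT were not counted in these settings, so the order of the depots there is not known. The lists were chosen on these values, so the differences between them were not tested.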

How the data were processed

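RNA was sequenced from 15 libraries of mature trout adipocytes, 5 each from SAT, IMAT and VAT, grouped by sample title. The authors deposited unnormalized counts for 64494 genes, whole numbers with totals that differ. The submitters' processing notes name Trimmomatic 0.30, STAR 2.5.2b, featureCounts (Subread 1.5.2) and DESeq2 1.6.3. For build, annotation, strand and reads with several matches, settings are not given in the sources used. Trout has many similar gene copies, so counts of near-identical or overlapping genes are uncertain. No promoter or protein sequence could be matched.

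Genes were filtered with filterByExpr by depot (minimum count 10, minimum total 15), which left 25695 genes with 99% of counts, and scaled by TMM. IMAT was tested against VAT with edgeR 4.0.16 in R 4.3.3 (quasi-likelihood F-test, robust, all 15 libraries, depot as the only term), with Benjamini-Hochberg adjustment over all genes. The SE is the log2 fold change divided by the square root of F. DESeq2 1.42.0 and limma 3.58.1 served as alternatives. A log2 offset of 0.5 CPM was used for deviations within depots. The number of libraries and counting noise limit the precision.

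The members, lists and tests were chosen with earlier results of these data known. Marker lists of adipocytes, muscle, skin, pigment cells and other types could not be matched to identifiers. Identifiers are printed for the 2 members with the largest SAT ratio and, for IMAT against VAT, the 2 called members with the most positive and the 2 with the most negative log2 fold change. The member ranked 3 by ratio and the members at the edges of the rule were described after their values had been seen. Which fish a library came from is not labelled, so p-values measure the spread between libraries. Of 30 pairs of libraries within depots, the most similar gave a chi-square of 6.37 per degree of freedom, so each library counted once.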

Additional observations from a re-analysis of the deposited data

Results flagged for a closer look

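A library stood apart from the 4 others of its depot, by a gap to the nearest of over 0.71 of the whole range, in 2 of 24 groups examined, where chance alone gives about 1 in 20. ENSOMYG00000033301 had 202.7 CPM in SAT replicate 4, against 39.8 to 83.5 CPM in the other SAT libraries. The total of IMAT replicate 2 was 4199494 counts, against 2413951 to 2655266 in the other IMAT libraries.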

How the results depend on the processing

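The number of genes highest in SAT stayed within 1.5 times of 54 with DESeq2 size factors (66), at equal depth (66), without the low-count filter (54), with a ratio over 2 (43) or no minimum ratio (58) and with a minimum of 20 CPM (44) or 5 CPM (74). It was 140 without scaling factors, where 50 of the 54 recurred, and 557 without SAT replicates 4 and 5 and VAT replicate 5. With single libraries left out it ran from 54 to 199. Of the 54, 42 recurred without the low-count filter, 44 at equal depth and 51 with DESeq2 size factors.

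The 13 members higher in IMAT than in VAT (24.1%, against 13.1% of all genes) were 8 without the low-count filter (14.8%, against 6.44%) and 5 when tested for a change of more than 1 on the log2 scale (9.26%, against 8.02%). They were 6 of 46 in a fit of only IMAT and VAT libraries (13%, against 11.9%), and 8 of 46 where the filter was met without SAT (17.4%, against 12.6%). With single libraries left out they were 8 to 14 (14.8 to 25.9%, against 11.7 to 13.9%). DESeq2 gave 14 (25.9%, against 15.5%) and limma-voom 9 (16.7%, against 12.3%). The 2 members lower in IMAT were 1 with limma-voom, 1 in the fit of only IMAT and VAT libraries, 1 where the filter was met without SAT, and 1 to 3 with single libraries left out. ENSOMYG00000014881, ENSOMYG00000033301 and ENSOMYG00000016098 did not meet the filter without SAT and have no value in that fit. No member passed as lower in edgeR's test for a change over 1 (log2), against 2.02% of all genes. In it 1 had an unadjusted p under 0.05 in this direction. The replicate numbers pair the samples in no label. The correlation of deviations from depot means was over 0.1 in every pair of depots for numbers 1, 3 and 5 and not for 2 and 4. Among libraries of the same number it was largest, at 0.532, between SAT and VAT replicate 5, and 0.269 between IMAT and VAT replicate 5. Of 5 IMAT libraries, 2 correlated best with the VAT library of their own number. With the replicate number as a block, 13 members were higher (24.1%, against 13.3% of all genes) and 2 lower (3.70%, against 9.63%). Of these 13, 12 were the same as without the block.

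Members with all IMAT libraries above VAT were 2 without scaling factors, and those with all below were 0 at equal depth. With single libraries left out these were 6 to 13 and 1 to 3. Shares over all genes were not counted here, so these counts show no change particular to the members. The ratio of ENSOMYG00000061049 ran from 12.9 to 23.6 with single libraries left out. The share of counts held by the members in SAT (0.880 to 0.964%) and the 55.8% of cases in which the SAT library left out lay above all others (59.5 to 72.5% under the alternatives) moved by less than the spread between libraries. The cause of these shifts was not tested. The median log2 fold change of all genes was -0.10, -0.24 without the low-count filter and 0.02 without VAT replicate 5.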
